A study of Rattus norvegicus with 4 samples.

Results

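A set of 10 genes expressed by tissue macrophages was followed in pancreatic islets of 14-day-old rats born after uterine artery ligation and of their controls. They were Trem2, Csf1r, Cd163, Mrc1, Clec10a, Cd68, Lyz2, C1qa, C1qb and C1qc. Each non-control probe of the array whose deposited gene name was one of these symbols was taken, which gave 11 probes for 10 genes, out of 30367 probes and 20012 genes or unnamed probes tested. The genes were chosen with the ratios of these same arrays known (Trem2, Clec10a and Cd163 high, Lyz2 low), so their ratios are given as a description and no test is attached to them.

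Intrauterine growth restriction (IUGR) was produced in timed pregnant Sprague Dawley rats bought from Charles River. The dams had both uterine arteries ligated at embryonic day 18, and the control dams had sham surgery on the same day. Pups were born spontaneously and killed at postnatal day 14, and total RNA was taken from isolated islets with TRIzol. Amplified cDNA of 4 IUGR and 4 control samples was hybridised in pairs, 1 IUGR and 1 control sample in the Cy5 and Cy3 channels of each of 4 Agilent rat arrays. The labels call these biological replicates but do not give the sex, the number of pups in a sample or their litters, so the errors given here are the spread between these samples.

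Islets hold a small population of resident macrophages beside their endocrine cells, and these cells clear debris and shape the growing islet. Csf1r is the receptor for the growth factor that keeps macrophages alive. Trem2 is a lipid-sensing receptor that signals through the adaptor Tyrobp, Cd163 takes up haemoglobin bound to haptoglobin, and Mrc1 and Clec10a are lectins that bind sugars on glycoproteins. Cd68 is a glycoprotein of the lysosome, Lyz2 is the lysozyme of myeloid cells, and C1qa, C1qb and C1qc encode the chains of C1q, the first component of complement, which macrophages make in many tissues. In RNA of whole islets, fewer macrophages and less RNA per macrophage cannot be told apart.

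Array 1 carried IUGR replicate 2 (Cy5) and control replicate 1 (Cy3), and array 2 carried IUGR replicate 1 (Cy5) and control replicate 2 (Cy3). Array 3 carried IUGR replicate 4 (Cy3) and control replicate 3 (Cy5), and array 4 carried IUGR replicate 3 (Cy3) and control replicate 4 (Cy5). The number of arrays limits the precision. All 14 hormone and beta cell genes searched for were measured, with a summed level of 614000 to 1330000 in IUGR and 683000 to 1140000 in control samples, and 11 acinar and duct genes summed to 559000 to 1250000 and 425000 to 895000. Before normalisation the median log2 signal of IUGR over control was 1.62 on array 1 and between -2.25 and -1.34 on the other arrays. After normalisation array 1 also stood apart: its ratios over all genes correlated with those of arrays 2, 3 and 4 at 0.13, -0.23 and -0.30, whereas arrays 2, 3 and 4 correlated with each other at 0.37 to 0.63. With limma and Benjamini-Hochberg adjustment 0 of 20012 genes passed an adjusted p of 0.05 in either direction, and the smallest adjusted p was 0.339. The same test gave 2738 genes, or 13.7%, at an unadjusted p under 0.05. The median log2 ratio of all genes was 0.01, and their 10th and 90th percentiles were -0.27 and 0.32.

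The probes that carried the 4 furthest ratios were each 60 bases long, and their first 30 bases in the deposited design, read 5′ to 3′, show what was measured. Coordinates of probes are those of the deposited scanner files on rat build rn4. The exon and the coding or untranslated part in which a probe lies were not determined here.
Trem2: gagcaggaatactggtgtgctgcatctgcg
Cd163: tcaagttcagtaccaagagatggattcgaa
Clec10a: ctttttgtcaaaaaatttaagtcaaggaga
Lyz2: gatgagcttgtaacaccagacaataatcac
The Trem2 probe (A_42_P512838) lay at chr9:8059065-8059124, and the Cd163 probe (A_64_P053012) at chr4:160423704-160423763. The Clec10a probe (A_42_P520349) lay at chr10:57002796-57002855, and the Lyz2 probe (A_64_P025286) at chr7:56607738-56607797.

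The mean log2 ratio of IUGR over control was above 0 for 8 of the 10 macrophage genes (6 of 10 with median centring in place of loess), against 52.9% of all genes tested, and below 0 for Mrc1 and Lyz2. The median over the 10 genes was 0.30, beside 0.01 over all genes. A mean ratio above 0.5 was found for 4 of the 10 genes (Trem2, Cd163, Clec10a and Csf1r), against 3.53% of all genes. A mean ratio below -0.5 was found for Lyz2, against 2.41% of all genes. Of the 10 genes, 7 had a ratio above 0 on all 4 arrays, against 11% of all genes, and Lyz2 was below 0 on all 4, against 9.69%. Since the genes were picked on this contrast, nothing is read from these shares. None of the 10 passed limma's adjusted threshold, and the same held for all genes (0% in each direction).

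**Figure D1:**
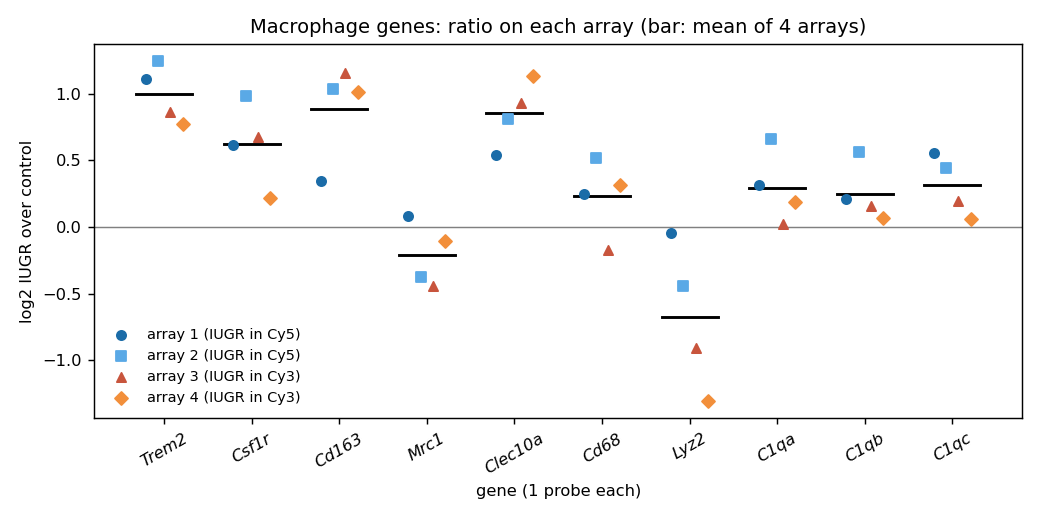
Log2 ratio of IUGR over control (y axis) of each of the 10 macrophage genes (x axis) on each of 4 arrays, with a bar at the mean; blue symbols are arrays with the IUGR sample in Cy5 and red or orange symbols those with it in Cy3. Trem2, Csf1r, Cd163 and Clec10a lie above 0 on every array, Lyz2 lies below 0 on every array, and the Lyz2 points run from -0.05 on array 1 to -1.31 on array 4.

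Among the receptors, Trem2 had the highest mean ratio. Its log2 ratio was 1.11 on array 1, 1.24 on array 2, 0.86 on array 3 and 0.77 on array 4. The mean was 1.00 ± 0.22 (SD, n = 4 arrays), a 1.99-fold difference, and the standard error from limma, which takes a dye effect out first, was 0.08. Without array 1 limma's estimate with the dye term was 1.03, which is not the plain mean of the other arrays. Every array placed the IUGR sample above the control sample it was hybridised with.

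The single-sample levels of Trem2, on the log2 scale after normalisation between channels, were 9.73, 10.63, 9.60 and 9.29 in IUGR replicates 1 to 4. In control replicates 1 to 4 they were 9.53, 8.49, 8.42 and 8.83. The groups overlapped through 1 sample on each side: control replicate 1, the partner of the highest IUGR sample, lay above IUGR replicate 4.

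Csf1r, which marks macrophages as a class, gave ratios of 0.62, 0.98, 0.68 and 0.21 on arrays 1 to 4, with a mean of 0.62 ± 0.32 (SD, n = 4 arrays), a 1.54-fold difference. Its levels were 8.49, 9.99, 8.26 and 8.81 in IUGR replicates 1 to 4, and 9.37, 7.50, 8.14 and 8.05 in control replicates 1 to 4. Control replicate 1 again lay inside the IUGR range, above 3 of the 4 IUGR samples. Csf1r was the gene of the 10 with a second probe, and the probes differed: the dimmer, A_64_P351634, gave -0.07, 0.24, 0.60 and 0.21, a mean of 0.24. The values above are those of A_44_P257582, whose deposited span is chr18:57105231-57105932.

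The scavenger receptor Cd163 gave 0.34 on array 1 against 1.03, 1.15 and 1.01 on arrays 2, 3 and 4. The mean was 0.89 ± 0.37 (SD, n = 4 arrays), a 1.85-fold difference. Limma's estimate with the dye term was 1.06 without array 1. Its levels were 8.91, 9.93, 8.85 and 9.07 in IUGR replicates 1 to 4, and 9.59, 7.88, 7.92 and 7.83 in control replicates 1 to 4. Control replicates 2, 3 and 4 lay close together and below every IUGR sample, while control replicate 1 lay above 3 of the 4 IUGR samples.

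The lectins differed from each other. Clec10a, which binds galactose-type sugars, gave ratios of 0.54, 0.81, 0.93 and 1.13 on arrays 1 to 4, a mean of 0.85 ± 0.25 (SD, n = 4 arrays) and a 1.81-fold difference. Its probe was printed as 10 spots on each array, and the log2 ratios of those spots had an SD of 0.03 to 0.06 within an array, smaller than the spread between arrays.

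The levels of Clec10a were 9.65, 10.82, 9.76 and 9.81 in IUGR replicates 1 to 4, and 10.28, 8.84, 8.88 and 8.62 in control replicates 1 to 4. As with Cd163, 3 control samples lay below all IUGR samples and control replicate 1 lay above 3 of them.

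Mrc1, the mannose receptor, gave 0.08, -0.37, -0.44 and -0.11 on arrays 1 to 4, a mean of -0.21 ± 0.24 (SD, n = 4 arrays). The mean moved from -0.80 with Agilent's processed signals and -0.57 with no normexp offset to 0.29 with median centring. Its probe was well above background in all 4 control channels but in 2 of the 4 IUGR channels. Its levels lay between 6.32 and 6.92 in IUGR samples and between 6.67 and 6.89 in control samples, and the groups overlapped. The deposited span of its probe (A_43_P18738) is chr17:88489156-88491763. The other 9 genes were well above background in all 8 channels, and no spot of any of the 10 was saturated.

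Of the lysosomal genes, Cd68 gave 0.25, 0.52, -0.17 and 0.32 on arrays 1 to 4, a mean of 0.23 ± 0.29 (SD, n = 4 arrays), smaller than the spread between arrays, and -0.06 with median centring. Its levels were 9.73 to 10.39 in IUGR samples and 9.34 to 10.14 in control samples, which overlapped.

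Lyz2, whose product cuts bacterial cell walls, went the other way. Its ratios were -0.05, -0.44, -0.91 and -1.31 on arrays 1 to 4, a mean of -0.68 ± 0.55 (SD, n = 4 arrays), a level in IUGR samples of 0.626 times that in controls. The arrays with the IUGR sample in Cy5 gave the 2 values nearest 0, and limma's dye term for Lyz2 was 0.43. These arrays also held other samples than those with it in Cy3, so dye and sample cannot be told apart. Over all genes, 0 of 20012 had a dye term at a limma adjusted p under 0.05 in either direction. The standard error of the Lyz2 ratio after the dye term was 0.12.

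The levels of Lyz2 were 13.48, 14.34, 13.60 and 13.87 in IUGR replicates 1 to 4, and 14.38, 13.92, 14.77 and 14.91 in control replicates 1 to 4. Control replicates 3 and 4 stood well above every IUGR sample, control replicate 1 stood narrowly above the highest of them, and control replicate 2 lay among them.

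**Figure D2:**
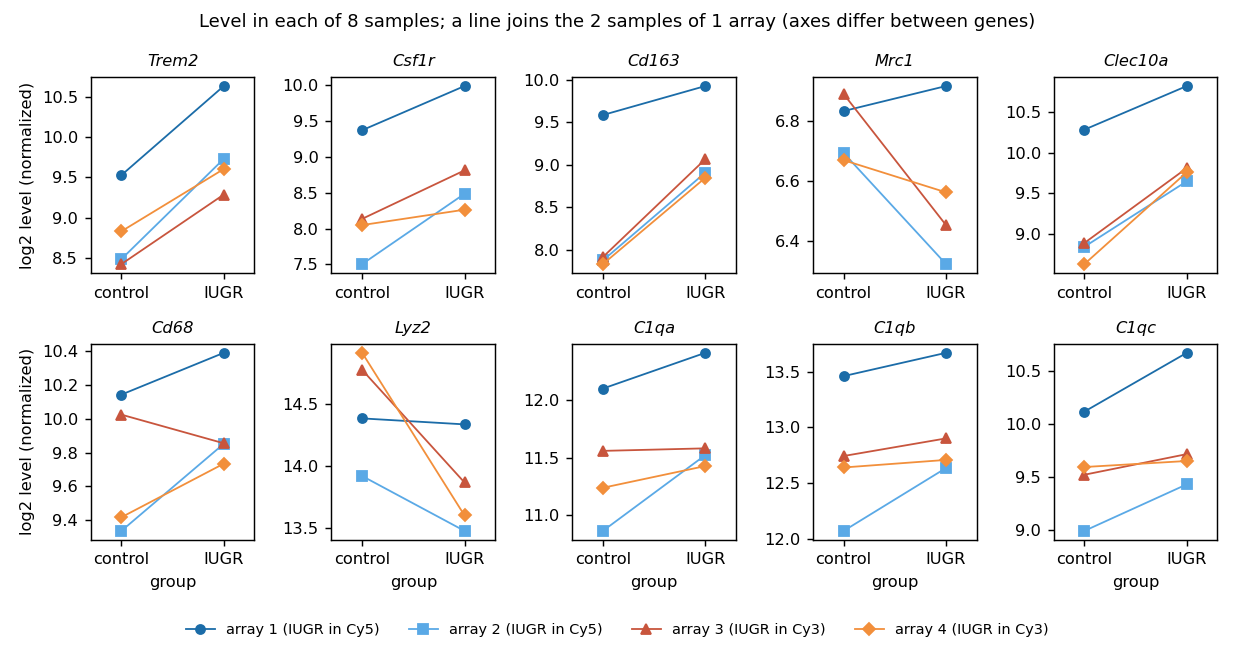
Normalised log2 level (y axis, scaled separately for each gene) of the 10 macrophage genes in the 4 control and 4 IUGR samples (x axis), with a line joining the samples that shared an array. For Trem2, Csf1r, Cd163 and Clec10a each line runs upward to IUGR while the samples of array 1 sit above the rest of their group, so that the groups overlap.

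The 3 complement genes lie side by side on chromosome 5 in the deposited coordinates, with probes at chr5:155647530-155647589 (C1qb), chr5:155656638-155656697 (C1qc) and chr5:155662578-155662637 (C1qa), within 15108 bases. Their chains assemble into 1 molecule, which binds antibody complexes and dying cells. C1qa gave ratios of 0.31, 0.66, 0.02 and 0.19 on arrays 1 to 4, a mean of 0.30 ± 0.27 (SD, n = 4 arrays). C1qb gave 0.21, 0.56, 0.16 and 0.07, a mean of 0.25 ± 0.22. C1qc gave 0.56, 0.44, 0.19 and 0.06, a mean of 0.31 ± 0.23. All 3 genes were above 0 on every array, each mean was close to the size of its own SD, and with median centring C1qa and C1qb turned to -0.04 and -0.08 while C1qc was 0.07.

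The levels of C1qa were 11.43 to 12.41 in IUGR samples and 10.86 to 12.10 in controls. C1qb lay at 12.64 to 13.67 in IUGR samples and 12.07 to 13.46 in controls, and C1qc at 9.43 to 10.68 and 8.99 to 10.12. Both groups overlapped for all 3 genes. No level of one probe is set against that of another, since probes differ in brightness.

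None of the 10 macrophage genes had IUGR and control levels that did not overlap, a pattern shown by 3.08% of all genes in either direction. Array 1 held the highest sample of both groups for most of these genes. Its IUGR sample was the highest IUGR sample for all 10 genes, against 27.2% of all genes tested. Its control sample was the highest control sample for 8 of the 10, against 35.1%, and both held for 8 of the 10, against 13.9%. Mrc1 and Lyz2 were the exceptions among the controls. The samples of array 1 were also high for neutrophil and mast cell markers: the summed level of 10 such genes was 23300 in control replicate 1 against 3350 to 4790 in the other controls, and 17400 in IUGR replicate 2 against 7250 to 12400 in the other IUGR samples. The ratios of these markers were above 0 for 9 of 10, against 52.9% of all genes, with a median of 0.58. At limma's unadjusted threshold 3 were higher and 0 lower, against 7.14% and 6.55% of all genes. Without array 1 the median was 1.05 and 7 were higher. All genes at that threshold, in either direction, also rose then, from 2738 to 6199 of 20012. The part of neutrophils and mast cells in the macrophage values was not tested.

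Within an array, the genes can be set against the mean of the 3 C1q ratios, which was 0.36, 0.55, 0.12 and 0.10 on arrays 1 to 4. This difference of ratios was chosen after the values were seen. For Trem2 it was 0.75, 0.69, 0.74 and 0.67, a mean of 0.71 ± 0.04 (SD, n = 4 arrays), so that the Trem2 ratio exceeded the C1q ratio by a similar amount on every array. For Clec10a it was 0.18, 0.26, 0.80 and 1.03, a mean of 0.57 ± 0.41. Cd163 gave 0.60 ± 0.47 and Lyz2 -0.96 ± 0.42, and neither was as even over the arrays.

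Across the 8 channels, with the mean of each dye taken out, the levels of 8 genes moved together and those of Mrc1 and Lyz2 did not join them. These correlations are a description, because channels of 1 array share spots and the samples of array 1 were high in both. The difference between IUGR and control was also left in the levels. Trem2, Clec10a and Cd163 were chosen as high and Lyz2 as low on that difference, so the place of Lyz2 apart was in part fixed by the choice. Pearson's r was 0.95 to 0.98 among the 3 C1q genes, and 0.67 to 0.99 among the 8 genes other than Lyz2 and Mrc1. The highest, 0.992, was between Cd163 and Clec10a. Lyz2 correlated with those 8 genes at -0.43 to 0.20 and Mrc1 at -0.04 to 0.45, and Lyz2 and Mrc1 correlated with each other at 0.74.

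**Figure D3:**
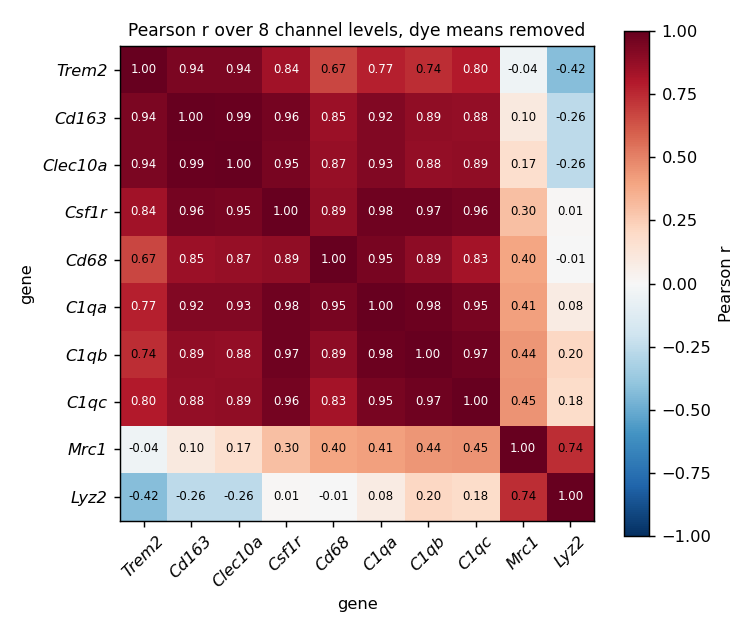
Pearson's r (colour and number) between the levels of each pair of the 10 macrophage genes over 8 channels, after the mean of each dye was removed; both axes list the genes. A block of 8 genes has values from 0.67 to 0.99, and Mrc1 and Lyz2 stand outside it. The difference between IUGR and control, on which the genes were chosen, is left in the levels.

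The genes with the most similar pattern over the 8 channels were taken for 4 of the 10. For Trem2 they were Tbxas1 (r = 0.994), Nsf (0.989) and Pcdh1 (0.984). For Clec10a they were Thoc4 (0.994), Plekhm2 (0.992) and Cd163 (0.992), and for Cd163 they were Clec10a (0.992), Thoc4 (0.991) and Vars (0.990). The pattern of Lyz2 was most like those of Tspan2 (0.977), Ldha (0.967) and Mboat1 (0.961). Their own ratios were smaller in size than those of the macrophage genes they resembled, 0.32 for Tbxas1 and -0.35 for Ldha, apart from the pair Clec10a and Cd163.

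The promoters of the genes were searched for the core of the site bound by PU.1 (Spi1), the transcription factor that macrophages depend on. RefSeq promoters of build GRCr8 were found for 8 of the 10 genes, and the 250 bases before each start were searched. Each motif was searched on both strands. GAGGAA occurred in 6 of these 8, against 23.3% of all 33469 promoters. A motif that can overlap it, AGGAAGT, occurred in 3 of 8, against 7.08%. The joined form GAGGAAGT was in 0 of 8, against 2.04%. The 250 bases before the start are shown for the genes at either end of the range of ratios, with each occurrence of the first motif, on either strand, in capitals.
Trem2, minus strand, chr9:20151780-20152029: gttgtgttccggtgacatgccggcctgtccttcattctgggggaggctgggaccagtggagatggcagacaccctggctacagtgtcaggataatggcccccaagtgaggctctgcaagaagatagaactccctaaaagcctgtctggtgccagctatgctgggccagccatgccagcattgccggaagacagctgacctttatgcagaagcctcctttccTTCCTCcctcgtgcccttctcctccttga
Lyz2, minus strand, chr7:54798012-54798261: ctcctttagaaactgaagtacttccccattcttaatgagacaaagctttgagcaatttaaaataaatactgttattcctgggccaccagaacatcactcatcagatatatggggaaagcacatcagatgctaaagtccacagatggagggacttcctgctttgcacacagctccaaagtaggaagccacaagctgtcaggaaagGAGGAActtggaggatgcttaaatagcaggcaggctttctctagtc
Both promoters held 1 match although the ratios of the genes had opposite signs. A match is a string of letters and not a measured site.

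The surrounding pathways were read from 7 companion lists with 133 tested genes. With limma, 0 of the 133 passed the adjusted threshold, and 24 were higher and 18 lower in IUGR samples at an unadjusted p under 0.05, together 31.6%, against 13.7% of all genes (7.14% higher and 6.55% lower). Their median log2 ratio was -0.02, beside 0.01 for all genes. These unadjusted counts moved with the processing: 64 of the 133 and 6199 of all genes without array 1, 13 and 464 without array 3, 15 and 1169 with median centring, and 27 and 1480 with outlying backgrounds kept as measured. Where an error follows the ratio of a companion gene, it is limma's standard error over 4 arrays, and a range is that over all alternatives and the value given.

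Among the tested genes around Trem2, 5 had ratios above 0 and 12 below. Of 17 tested genes of Trem2 signalling and lipid-laden macrophages, 1 was higher and 5 were lower at the unadjusted threshold, and the median was -0.18 (-0.40 with median centring). Without array 1 the counts were 0 and 7, with median centring 1 and 1, and with Agilent's processed signals 1 and 0. Tyrobp, the adaptor through which Trem2 signals, had a ratio of -0.32 ± 0.11 (range -0.67 to -0.18), and Apoe, a lipid carrier that Trem2 binds, -0.18, which rested on the replacement of an outlying background and was -2.10 with that background kept. The lysosomal lipase Lipa had -0.44 ± 0.14 (range -0.78 to -0.24) and the tetraspanin Cd9 -0.44 ± 0.13 (range -0.65 to -0.27). Msr1, a scavenger receptor for modified lipoproteins, was at 0.34 ± 0.11 (range 0.20 to 0.90). The Tyrobp ratio was 0.09, -0.34, -0.65 and -0.37 on arrays 1 to 4. Trem2 was chosen as high on these arrays, so nothing is read from its place above Tyrobp on each.

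Among 14 genes of the Csf1r axis and of macrophage regulation, 1 was higher and 1 lower, with a median of 0.10. Csf1, the main ligand of Csf1r, had -0.52 ± 0.19 (range -0.77 to -0.23), with 0.11 on array 1 and -0.90, -0.81 and -0.49 on arrays 2 to 4. The other ligand, Il34, had 0.20. Spi1 had -0.16, and Csf2ra, a receptor chain for another colony-stimulating factor, 0.23. With median centring Il34 was at -0.17, Csf2ra at -0.11 and Spi1 at 0.29.

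Markers of resident and alternatively activated macrophages split. Of 18 tested, 6 were higher and 3 lower (6 and 6 without array 1, 1 and 2 with median centring), with a median of -0.03. The 3 lower ones mark macrophages that line sinuses of lymphoid organs: the lectin Cd209b at -2.0 ± 0.32, sialoadhesin (Siglec1) at -1.23 ± 0.26 and the scavenger receptor Marco at -0.53 ± 0.11. On array 1 none of these was below -0.03, with 0.13 for Cd209b, 0.37 for Siglec1 and -0.02 for Marco, so their means came from the other arrays. Cd209b and Marco were well above background in 0 IUGR and 3 control channels, so they entered the test through the controls alone. With IUGR levels raised to the lowest signal well above background, Cd209b was 3.98-fold and Marco 1.42-fold higher in controls. This moved the mean IUGR level only from 6.5 to 6.51 for Cd209b and from 6.23 to 6.25 for Marco. The folds are therefore estimates and not lower bounds. With outlying backgrounds left out they were 2.43-fold and 1.22-fold. The adjusted p by limma was 0.339 for each. Over the alternatives Cd209b ranged from -4.30 to -1.36, Siglec1 from -1.62 to -0.82 and Marco from -2.13 to -0.18. The higher ones included Arg1, the arginase of alternatively activated cells, at 0.34 ± 0.08 (0.0039 with median centring), and, chosen after their values were seen, the folate receptor Folr2 at 0.63 ± 0.16 and the chemokine Pf4 at 0.74 ± 0.27.

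The mean of the lymphocyte markers too was near 0 on array 1 and below 0 on the others. Of 14 T and B cell genes 11 were lower at the unadjusted threshold (4 with median centring), against 6.55% of all genes. Among the 11, Cd2 and Ms4a1 were well above background in 0 IUGR and 3 control channels, and Cd3e and Cd8a in 1 and 3. These genes entered the test through the controls alone, so nothing is read from their calls. The list had a median of -0.44 (-0.19 with median centring and -1.13 with Agilent's processed signals). Its means were 0.03, -0.28, -1.23 and -0.67 on arrays 1 to 4. The summed level of the 14 genes was 7810 in control replicate 3 against 2020 to 3420 in the other controls and 1800 to 2420 in IUGR samples. The part of lymphocytes in the lower macrophage genes was not tested.

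For haemoglobin and iron handling, the pathway of Cd163, 1 of 12 genes was higher and 0 lower, with a median of 0.06. Lrp1, the receptor that takes up haem bound to haemopexin, had 0.61 ± 0.13 (range 0.35 to 0.79). The haem-degrading enzyme Hmox1 had 0.12 (0.0052 with median centring), and the iron transporters Slc11a1 and Slc11a2 had 0.21 and 0.24 (0.70 and -0.11 with median centring). Red cell genes were higher for 4 of 6 at the unadjusted threshold, against 7.14% of all genes, with a median of 0.47. With median centring the count was 0 of 6 and the median 0.06. The part of red cells in the Cd163 values was not tested.

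The other complement genes did not follow C1q as a group. Of 24 tested, 3 were higher and 3 lower (3 and 7 without array 1, 1 and 2 with median centring), with a median of -0.07 (-0.37 with median centring). The proteases that join C1q, C1r and C1s, had -0.31 and -0.29, and 0.02 and 0.10 with channel brightness as a covariate. The central component C3 had -0.04, and C4b, cut by C1s, had -0.49. The C4b ratio was -1.27 and -1.44 on arrays 1 and 2 but 0.61 and 0.15 on arrays 3 and 4. Dye and sample cannot be told apart in this split. Factor D (Cfd), the protease of the alternative pathway, had 0.74 ± 0.14 (range 0.42 to 0.93) and was above 0 on all 4 arrays.

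Lysosomal genes, the compartment of Cd68, were higher for 4 of 19 and lower for 1, with a median of 0.07; with median centring the counts were 1 and 1 and the median -0.13. Hexa, a subunit of hexosaminidase, had 0.57 ± 0.14 and Npc2, a cholesterol carrier, 0.53 ± 0.18 (0.25 and 0.20 with median centring). Prosaposin (Psap) had 1.07 ± 0.37 (range 0.48 to 1.55), with 0.00 on array 1.

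Pan-myeloid genes were higher for 8 of 29 and lower for 5 (8 and 10 without array 1, 1 and 3 with median centring), with a median of -0.04. The pan-leukocyte phosphatase Ptprc had -0.79 ± 0.23 (range -1.07 to -0.50), with 0.01 on array 1 and -0.71, -1.79 and -0.66 on arrays 2 to 4. The inflammatory cytokine Tnf had 0.66 ± 0.09 (range 0.57 to 0.95), the chemokine Ccl6 0.95 ± 0.18 (0.70 to 1.15) and the antibody receptor Fcgr1a 0.56 ± 0.11 (0.27 to 0.66), each above 0 on all 4 arrays. Dendritic cells, which also carry Clec10a and Csf1r in part, gave 0 higher and 1 lower of 9 genes, a median of -0.23 and summed levels of 5860 to 7750 in IUGR and 5940 to 19100 in control samples. Their part in the macrophage values was not tested. Pan-myeloid ratios thus lay on both sides of 0, with 12 above and 17 below. The signs of the 10 macrophage genes were in part fixed by their choice, so no likeness to them is read.

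**Figure D4:**
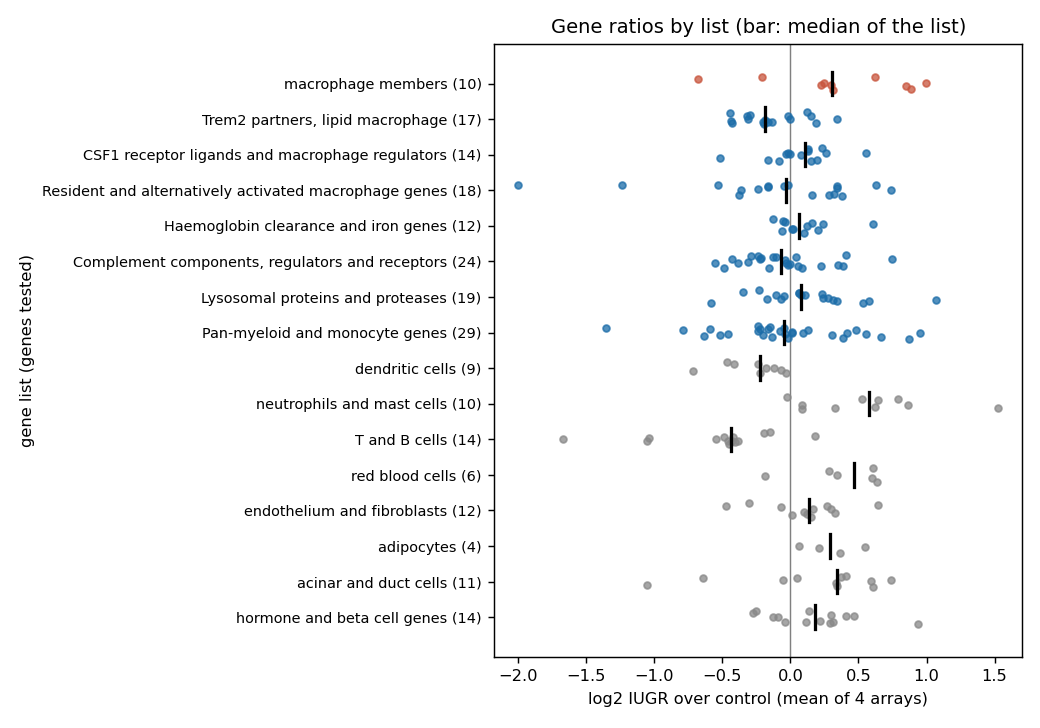
Mean log2 ratio of IUGR over control (x axis, 4 arrays) of each tested gene of the 10 macrophage genes (red), 7 companion lists (blue) and markers of other cell types (grey), with the number tested in brackets and a bar at each median. The macrophage genes, which were chosen on this contrast, have a median of 0.30, and the companion medians lie between -0.18 and 0.10. With median centring the macrophage median was 0.18 and the companion medians lay between -0.40 and 0.17.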

How the data were processed

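Intensities were read from the deposited 2-colour scanner files, made with Agilent Feature Extraction 10.10.1.1 per the file headers; the submitters' processing notes name limma without a version. The authors' deposited log2 table of the same arrays, whose scale, centring and direction were not stated, served as an alternative after it was set against the scanner values. Spots flagged as outliers were dropped, and an outlying local background was replaced by the median of its channel. In R 4.3.3 with limma 3.58.1, normexp (offset 50) and loess were applied, and ratios were turned to IUGR over control. Probes well above background in at least 2 of 4 channels of a group were kept, and the brightest probe stood for a gene. The fit held a dye term; p-values were adjusted by Benjamini-Hochberg over 20012 genes. Levels came from Aquantile normalisation. All 4 arrays came from 1 slide. The fit was tested on simulated data. The members and lists were chosen with earlier results of these data known. Named genes were the 10 macrophage genes, the 3 of each list with the smallest p, and a fixed set. Of these, 2 list genes are not reported here.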

Additional observations from a re-analysis of the deposited data

Results flagged for a closer look

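Of 87 sets of 4 values checked for a sample far from the others, 7 had one. Chance alone gives about 1 in 20 for independent sets. These sets are not independent, since ratios and levels of a gene share values and all come from the same arrays. Nothing is therefore read from the count. All 7 concern array 1. The Cd163 log2 ratio was 0.341 on array 1 against 1.01 to 1.15 on the others. The Cd163 level of control replicate 1 was 9.59 against 7.83 to 7.92, and its Clec10a level was 10.3 against 8.62 to 8.88. In IUGR replicate 2 the Clec10a level was 10.8 against 9.65 to 9.81, and the C1qa level 12.4 against 11.4 to 11.6. The neutrophil calprotectin genes were below 0 on array 1 alone: the S100a8 ratio was -1.07 against 1.09 to 1.3, and the S100a9 ratio was -1.19 against 0.956 to 1.32.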

How the results depend on the processing

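Across 20 alternatives, 8 of the 10 macrophage genes had ratios above 0 in each but median centring, which gave 6. Several alternatives cannot move these ratios, among them Aquantile normalisation and leaving out the dye term. With either, Mrc1 stayed at -0.2089. Nothing is therefore read from the number of alternatives that gave 8. Trem2 ranged from 0.81 to 1.18, Clec10a from 0.64 to 0.97 and Lyz2 from -1.06 to -0.57. Calls of all genes numbered 15 with median centring and 7 with channel brightness as a covariate, all lower. The separate channel fit gave 0 calls without a block for the replicate number. With the block it gave 2492 of 20012 genes, among them 24 of 133 companion genes. The block left no residual within arrays, and its spot correlation (0.52) was the one estimated without it. The 10 macrophage genes were chosen on this contrast, so no call of theirs in this fit is read. The cause of the difference between the fits was not tested. Same-numbered samples deviated together at -0.29 to 0.09, and the highest value with a differently numbered sample was 0.37. These correlations showed no pairing by number. Whether a number marks a shared litter was not tested, as the labels do not give litters. Median centring called 1 of 133 companion genes, Cd209b (-2.28, limma adjusted p = 0.000985), against 15 of 20012 genes. Cd209b entered the test through the controls alone. Leaving out any 1 array gave 0 calls over all genes, with 464 (without array 3) to 6199 (without array 1) at an unadjusted p under 0.05, and left 8 macrophage genes above 0.

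Signs of named genes turned as follows, the cause not tested. Median centring gave Col1a2 -0.0956, Csf2ra -0.107, Il34 -0.165, Slc11a2 -0.107, Slc2a2 -0.0597 and Spi1 0.285. Spi1 was 0.0072 with outlying backgrounds left out and 0.0071 with them kept. The brightness covariate gave C1r 0.017, C1s 0.0997 and S100a9 -0.0247. Leaving out 1 array at a time, C3 ranged from -0.473 to 0.400, above 0 without array 1 (0.0837) or 4. C1s ranged from -0.664 to 0.089 and S100a9 from -0.0124 to 1.063, turning without array 2. Adipoq ranged from -0.103 to 0.835 and Spi1 from -0.341 to 0.0175, turning without array 3.
Precision is limited by 4 arrays and 2 residual degrees of freedom.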
